A study of Arabidopsis thaliana with 6 samples.

Results

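Anthocyanins are the red to purple pigments that plants store in the vacuole, where they absorb light and act as antioxidants. They are made at the late end of the flavonoid pathway: DFR reduces dihydroflavonols to leucoanthocyanidins, and LDOX oxidises these. The resulting anthocyanidins are glycosylated and moved into the vacuole. In Arabidopsis the late genes are switched on by a complex of MYB, bHLH and WD40 proteins, in which MYB75 (also called PAP1) is a main MYB of leaves and seedlings. The set described here holds 6 probe sets of 22746 on the array: DFR (249215_at), LDOX (254283_s_at), UF3GT (248185_at), UGT75C1 (245624_at), TT19/GSTF12 (250083_at) and MYB75/PAP1 (245628_at). They were picked by gene name, but with earlier results of these data known. The platform annotation used here pairs 3 of the 6 with a gene, namely DFR, UF3GT and AT4G14090, the locus listed as UGT75C1. The other 3 carry the name given in the definition of the set and were not matched to a gene here. The identifier of the LDOX probe set ends in s_at, which marks probes that match more than 1 transcript, so the LDOX signal may include RNA of another gene.

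Transcript levels were measured with Affymetrix arrays in Arabidopsis thaliana leaves, 3 arrays from wild-type Col0 plants and 3 from Col0 plants that carry the AmGSTF1 transgene. AmGSTF1 is a glutathione transferase of a grass weed, and the series concerns its part in resistance to several herbicides. All plants grew at 20 °C with 16 hours of light, from seed chilled at 4 °C for 72 hours. In both groups, 10 leaves per replicate floated for 4 hours in growth room conditions on Tween 20 and acetone at 0.1% each, and the labels name no herbicide. The sources used here do not give the promoter of the transgene, the number of transgenic lines or the age of the plants. The comparison asks whether the plant's own late anthocyanin genes differ when the enzyme is present. RCA, the Rubisco activase of green leaf tissue, had a signal of 15370 to 22829 on the 6 arrays. The transgene had no probe set here that could serve as a check of the labels.

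None of the 6 genes passed the test. With limma over all 22746 probe sets, 0 of the 6 had a Benjamini-Hochberg adjusted p under 0.05, where 336 probe sets (1.48%) did. That count itself was 3, 601 and 1 on omitting Col0 replicate 1, 2 or 3 and 6, 401 and 21 on omitting AmGSTF1 replicate 1, 2 or 3, and it was 26 with a replicate block and 0 without the intensity trend. At an unadjusted p under 0.05 there was 1 of 6, TT19/GSTF12, against 16.1% of all probe sets. The Col0 and AmGSTF1 signals overlapped for each of the 6, so 0 of 6 were separated, where 20.8% of all probe sets were. The differences of the 5 pathway genes lay above 0 and that of MYB75 below 0, where 12204 of all 22746 probe sets lay above 0. However, DFR turned below 0 in 2 and UGT75C1 in 6 of 15 alternative fits. The 95% intervals of DFR and UGT75C1 spanned more than 1 on the log2 scale in both directions. Differences of that size were thus not excluded for them at this number of arrays and this signal. The standard errors were 0.66 and 0.70 for these genes and 0.61, 0.61 and 0.56 for LDOX, UF3GT and TT19/GSTF12. The differences of LDOX, UF3GT and TT19/GSTF12 were 1.15, 1.01 and 1.31 and were not called either. With the 40% dimmest probe sets left out, MYB75 was the single member tested and was not called (adjusted p = 0.255), where 5.04% of the 13647 remaining probe sets were.

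All 5 pathway genes were dim. Their mean log2 signals over the 6 arrays lay in the lowest 40% of the table, while MYB75 lay above that limit. The signal below which 40% of probe sets fell was 68.7 to 84.5, depending on the array, and 7 of the 30 signals of the 5 pathway genes were above it on their own array. MAS5 detection calls were not used here, so a dim signal was not separated from background. Among the 9099 dim probe sets, 5 (0.055%) had an adjusted p under 0.05, 6.5% had an unadjusted p under 0.05, and the groups did not overlap for 10.7%. All differences below are AmGSTF1 minus Col0 on the log2(signal + 16) scale, where the size of a dim probe set's difference depends on the pseudocount.

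**Figure D1:**
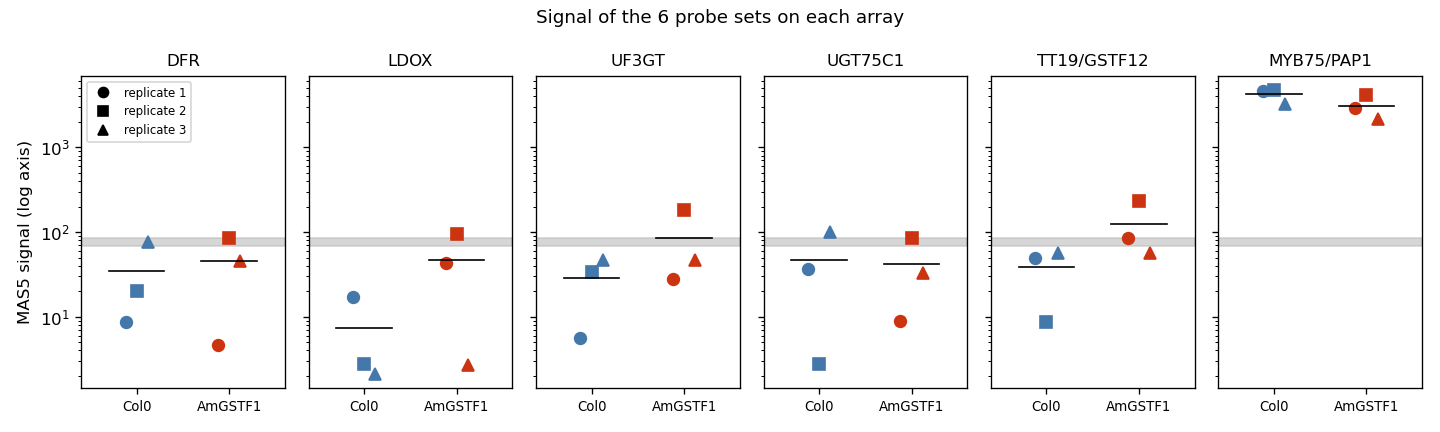
MAS5 signal (log axis) of the 6 probe sets on each array, with Col0 in blue, AmGSTF1 in red, the marker shape giving the replicate number and the black line the group mean. The grey band marks the signals of 68.7 to 84.5 below which 40% of probe sets fell. Most signals of the 5 pathway genes lie at or under the band, AmGSTF1 replicate 2 is the highest array for 4 of them, and MYB75 lies above it on every array.

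DFR reduces dihydroflavonols to leucoanthocyanidins, the step that commits the pathway to anthocyanins and tannins. Its signals were 8.70, 20.1 and 76.5 in Col0 replicates 1 to 3 and 4.63, 84.4 and 45.7 in AmGSTF1. The lowest and the highest array were both AmGSTF1 arrays, and the Col0 signals lay between them. The group means were 35.1 ± 36.3 in Col0 and 44.9 ± 39.9 in AmGSTF1 (SD, n = 3), a difference of 0.21 on the log2 scale (95% interval -1.27 to 1.69, limma adjusted p = 0.922). Its sign rested on single arrays: omitting Col0 replicate 1 gave -0.20 and omitting AmGSTF1 replicate 2 gave -0.29, whereas omitting Col0 replicate 3 gave 0.75 and omitting AmGSTF1 replicate 1 gave 0.85.

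LDOX, the anthocyanidin synthase, makes the coloured anthocyanidins. Its signals were 17.2, 2.80 and 2.10 in Col0 and 42.9, 94.9 and 2.68 in AmGSTF1. AmGSTF1 replicates 1 and 2 were above all Col0 arrays, whereas AmGSTF1 replicate 3 lay within the Col0 range. The difference was 1.15 (95% interval -0.22 to 2.51, limma adjusted p = 0.402). It was 0.56 without AmGSTF1 replicate 2 and 1.85 without AmGSTF1 replicate 3, and 2.06 with a pseudocount of 1 against 0.55 with a pseudocount of 64, with no call in any of these.

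UF3GT and UGT75C1 attach sugars to the pigment: UF3GT extends the sugar at the 3 position and UGT75C1 adds glucose at the 5 position. UF3GT had Col0 signals of 5.56, 33.5 and 46.9 and AmGSTF1 signals of 27.9, 184 and 46.2. AmGSTF1 replicate 2 stood above the other 5 arrays, and the remaining AmGSTF1 signals lay inside the Col0 range. The difference for UF3GT was 1.01 (95% interval -0.38 to 2.39, limma adjusted p = 0.474), and 0.36 without AmGSTF1 replicate 2. UGT75C1 had Col0 signals of 36.8, 2.76 and 99.6 and AmGSTF1 signals of 8.86, 84.9 and 32.9. Both ends of the range were Col0 arrays, and all AmGSTF1 signals lay between them. The difference for UGT75C1 was 0.03 (95% interval -1.55 to 1.62, limma adjusted p = 0.990), and its sign turned with the scaling, to -0.06 under median centring and -0.02 under quantile normalization. Omitting Col0 replicate 2 gave -0.65 and omitting Col0 replicate 3 gave 0.66.

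TT19/GSTF12 is a phi-class glutathione transferase of the plant itself, the class the F in AmGSTF1 stands for, and it is needed for anthocyanins to reach the vacuole. Its signals were 50.0, 8.64 and 56.5 in Col0 and 84.2, 233 and 56.3 in AmGSTF1. The groups touched, since AmGSTF1 replicate 3 lay just under Col0 replicate 3, and the other AmGSTF1 arrays were above all Col0 arrays. The means were 38.4 ± 26.0 in Col0 and 125 ± 95.2 in AmGSTF1 (SD, n = 3). The difference of 1.31 (95% interval 0.05 to 2.57) did not pass over all probe sets (limma unadjusted p = 0.0430, adjusted p = 0.291). It was 0.80 without AmGSTF1 replicate 2 and 0.82 without Col0 replicate 2, the arrays with the highest and the lowest signal.

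MYB75, the regulator, had Col0 signals of 4674, 4720 and 3273, against 2913, 4167 and 2186 in AmGSTF1. The highest arrays were Col0 replicates 1 and 2 and the lowest AmGSTF1 replicates 1 and 3, and AmGSTF1 replicate 2 lay within the Col0 range. The means were 4223 ± 822 in Col0 and 3089 ± 1002 in AmGSTF1 (SD, n = 3). The difference was -0.48 (95% interval -1.02 to 0.06, limma adjusted p = 0.368), of the opposite sign to the 5 pathway genes. It was -0.72 without AmGSTF1 replicate 2 and -0.26 without AmGSTF1 replicate 3. AmGSTF1 replicate 2, the highest array for 4 of the pathway genes, was also the highest of the AmGSTF1 arrays for MYB75. Col0 replicate 2, the highest array for MYB75, was the lowest for UGT75C1 and TT19/GSTF12.

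**Figure D2:**
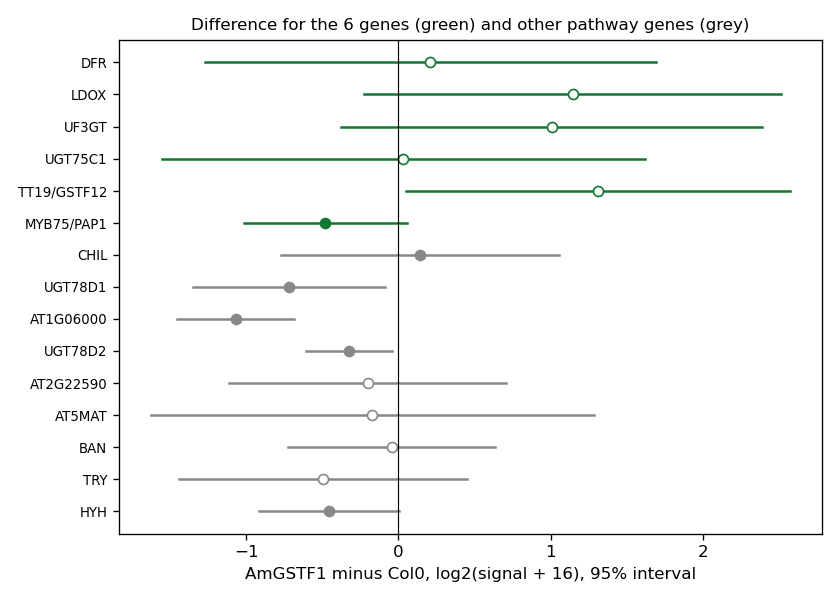
Difference between AmGSTF1 and Col0 on the log2(signal + 16) scale with its 95% interval from limma, for the 6 genes in green and the 9 other measured pathway genes in grey. Open circles are dim probe sets. The interval of TT19/GSTF12 lies above 0, with its lower end at 0.05, and the other 5 green intervals cross 0. Among the grey genes, the intervals of AT1G06000, UGT78D1 and UGT78D2 lie below 0, that of AT1G06000 farthest.

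The replicates of a group differed widely for these genes. The SD within groups, pooled over both, was 1.08 on the log2 scale for DFR, 0.98 for LDOX, 0.99 for UF3GT, 1.17 for UGT75C1 and 0.89 for TT19/GSTF12. It was 0.39 for MYB75. For the 1000 probe sets nearest in mean log2 signal the median was 0.40 to 0.64 for the 5 pathway genes and 0.19 for MYB75. The spread of each member was larger than that of 94.6% (MYB75) to 99.6% (UGT75C1) of those 1000 probe sets, a comparison chosen after the data were seen and given as a description.

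Most of the 5 pathway genes were high together on AmGSTF1 replicate 2. Over all probe sets this array also had the lowest limma array weight, which falls as an array departs from its group. The weight was 0.71, where the other arrays had 0.82 to 1.44. Averaged over the 5 pathway genes and centred on the 6 arrays, the log2 level was 1.47 on AmGSTF1 replicate 2 and -0.89 on Col0 replicate 2. It lay between -0.49 and 0.27 on the other 4 arrays. These levels include the difference between the groups. Col0 replicate 2 was the lowest array for 2 of 5 genes, where it was the lowest for 16.4% of all probe sets and 19.0% of dim ones. Within Col0, LDOX was highest on replicate 1, where DFR and UF3GT were lowest. How far the spread within groups was shared between the genes was not tested. AmGSTF1 replicate 2 was the highest array for 4 of 5 genes, where it was the highest for 15.2% of all probe sets and 15.0% of dim ones. UGT75C1 was the exception, with its highest signal on Col0 replicate 3. Without AmGSTF1 replicate 2 the differences of DFR and UGT75C1 turned to -0.29 and -0.48, while those of LDOX, UF3GT and TT19/GSTF12 were 0.56, 0.36 and 0.80.

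Of the 13510 other probe sets with 1 named gene, the 4 nearest to this mean profile were AT3G45680, PYK10, AT5G04010 and AT3G01175. Their root mean square difference from it over the 6 arrays was 0.21, 0.24, 0.25 and 0.26 on the log2 scale. AT3G45680, AT5G04010 and AT3G01175 were dim, with signals of at most 64.3, 38.4 and 36.6. PYK10, a beta-glucosidase abundant in roots and the 1 measured member of 3 root markers, had Col0 signals of 53.2, 38.5 and 85.9 and AmGSTF1 signals of 79.8, 173 and 63.2. Its highest array was AmGSTF1 replicate 2 and its lowest Col0 replicate 2, as for AT3G45680, AT5G04010 and AT3G01175. This goes with the choice of all 4 by nearness to the mean profile and is no separate result. The difference of PYK10 was 0.63 (95% interval -0.28 to 1.55, limma adjusted p = 0.500). It was 0.26 without AmGSTF1 replicate 2 and 0.43 without Col0 replicate 2. The part of PYK10 in the levels of the pathway genes was not tested. The other measured cell type markers were RCA (-0.17), the guard cell regulator FMA (-0.55) and the phloem sugar transporter SWEET11 (0.08), each called in neither direction and with SWEET11 at -0.01 under median centring. The groups did not overlap for FMA, as for 20.8% of all probe sets. Only 4 of the 36 listed markers had a named probe set, and epidermis, trichome, flower and seed, and cell division markers had 0. In whole leaves, fewer cells of a type and less RNA per cell cannot be told apart.

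Of 57 other genes of the pathway and its control, 9 had a named probe set, and 0 rose and 1 fell, beside 0.541% and 0.936% of all probe sets in these directions. Their median difference was -0.32, where that of all probe sets was 0.03. Of the 9 differences 1 lay above 0, where 12204 of all 22746 did. The single fall was that of AT1G06000, listed as UGT89C1, which adds rhamnose to flavonols, the colourless branch that uses the same precursors. Its signals were 2567, 1865 and 2246 in Col0 and 874, 1278 and 1017 in AmGSTF1, with no overlap, as for 20.8% of all probe sets. The difference was -1.07 (95% interval -1.46 to -0.68, limma adjusted p = 0.0316). The call was lost when replicate 1 or 3 of Col0 was left out (limma adjusted p = 0.174 and 0.149), and likewise replicate 1 or 3 of AmGSTF1 (0.158 and 0.110). It was also lost without the intensity trend (0.172) and with the replicate number as a block (0.0933).

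UGT78D2, the 3-O-glucosyltransferase that serves both flavonols and anthocyanins, acts between LDOX and UF3GT. Its signals were 636, 588 and 594 in Col0 and 501, 481 and 460 in AmGSTF1. All AmGSTF1 arrays were below all Col0 arrays, where the groups did not overlap for 20.8% of all probe sets. The difference of -0.32 (95% interval -0.60 to -0.04) did not pass (limma adjusted p = 0.241). The other measured flavonol genes, UGT78D1 and AT2G22590 (listed as UGT91A1), differed by -0.72 and -0.20 without a call. Their 95% intervals were -1.35 to -0.09 and -1.11 to 0.71 (limma adjusted p = 0.248 and 0.865). At an unadjusted p under 0.05 there were 3 of the 4 measured flavonol genes, against 16.1% of all probe sets. These 3 were not dim. In the limma fit without the 40% dimmest probe sets, 3179 of 13647 had an unadjusted p under 0.05, a larger share. UGT78D1 was -0.39 without Col0 replicate 1 and -1.01 without Col0 replicate 2, and the dim AT2G22590 ranged from -0.59 to -0.00088 with 1 array left out.

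AT5MAT, which adds malonate to the glucose that UGT75C1 attaches, had Col0 signals of 51.5, 6.90 and 9.11 and AmGSTF1 signals of 2.89, 1.85 and 64.6. It was dim, and its high arrays were Col0 replicate 1 and AmGSTF1 replicate 3, other than those of the 5 pathway genes. Its difference was -0.17 (95% interval -1.63 to 1.28, limma adjusted p = 0.937). BAN, the anthocyanidin reductase of seed coat tannins, was at 2.05 to 13.0 on all arrays and differed by -0.04.

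CHIL, an early pathway protein that assists chalcone isomerase, was the 1 measured of 5 early genes. It differed by 0.14 (95% interval -0.77 to 1.06), with its highest signals, 147 and 141, on Col0 replicate 3 and AmGSTF1 replicate 2. Of the regulators, TRY, a small MYB protein that competes for the bHLH partner, differed by -0.50 at dim signals of 5.86 to 43.7, and by -0.84 to -0.23 with 1 array left out. HYH, a light-signalling transcription factor related to HY5, had Col0 signals of 482, 789 and 507 and AmGSTF1 signals of 367, 415 and 476. The groups did not overlap for HYH, as for 20.8% of all probe sets. Its difference of -0.46 (95% interval -0.92 to 0.003) did not pass (limma adjusted p = 0.313) and was -0.24 without Col0 replicate 2. Of the 8 other activators of the MYB, bHLH and WD40 complex and the 8 genes of phenylpropanoid entry, 0 had a named probe set.

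**Figure D3:**
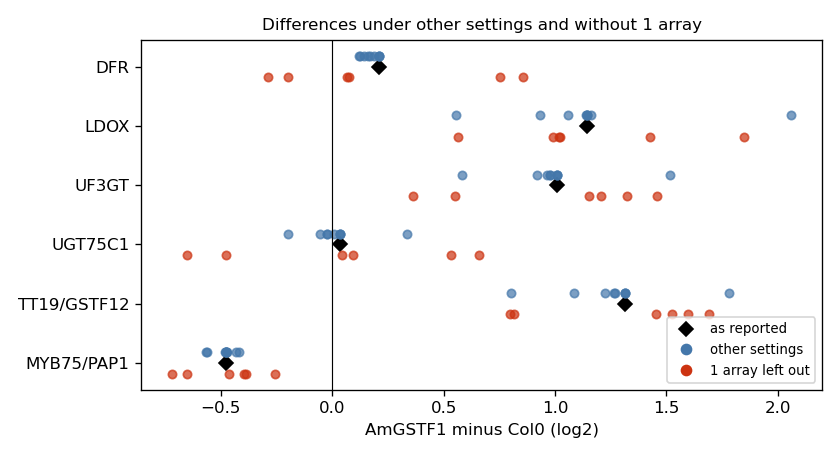
Difference between AmGSTF1 and Col0 (log2) for the 6 genes as reported (black diamonds), under other processing settings (blue) and without 1 array (red). DFR and UGT75C1 fall on both sides of 0, LDOX, UF3GT and TT19/GSTF12 stay above it and MYB75 stays below it.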

How the data were processed

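The authors deposited 1 MAS5 intensity per probe set and array, on a linear scale. The submitters' processing notes name Affymetrix Expression Console 1.1 as the software. The 2% trimmed mean was 496 on every array, to the nearest whole number, and the median 146 to 164. Groups follow the transgene label and replicate numbers the titles. The series' design text calls the replicates biological but does not say how they were grown apart. The p-values treat the arrays as independent samples and may be too small if they were not.

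Signals of 22746 probe sets were transformed to log2(signal + 16) with no filter, since all 6 genes were kept even if dim, and AmGSTF1 was compared with Col0 with limma 3.58.1 in R 4.3.3 (lmFit, eBayes with an intensity trend, no replicate term). P-values are two-sided and adjusted over all probe sets. With 3 arrays a group, exact permutation p-values cannot go below 0.1, and none were computed. Gene names came from the platform annotation, updated through the RefSeq table of TAIR10.1: 13513 had 1 gene, 503 several and 8730 were unnamed here. Each listed gene is represented by its brightest probe set. The members and lists were chosen with earlier results of these data known.

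The text names all 6 members, in each pathway list the called genes and the 2 with the smallest p, 1 marker per list, and the 4 nearest profiles. UGT78D1 and AT2G22590 fall outside this rule and were chosen after their values were seen. Same-numbered arrays deviated from their group means with correlations of 0.146, -0.027 and -0.050 across the 13647 brighter probe sets. The labels give no pairing. Without a reference value for these correlations, whether same-numbered samples shared growth or processing cannot be told. Alternatives were other pseudocounts, a filter on dim probe sets, normalizations between arrays, limma without the trend, robust, with array weights or with a replicate block, and fits that omit 1 array. Promoter and protein sequences were not analysed here.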

Additional observations from a re-analysis of the deposited data

How the results depend on the processing

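In 16 alternative fits, 0 of the 6 genes were called wherever they were tested (adjusted p from 0.124 to 0.998). Leaving out the 40% dimmest probe sets tested MYB75 alone of the 6. LDOX, UF3GT and TT19/GSTF12 stayed above 0 and MYB75 below 0 in each fit. UGT75C1 turned to -0.0220 with a pseudocount of 64, -0.0223 with quantile normalization, -0.0552 with median centring and -0.20 with array weights. Without 1 array it ranged from -0.65 to 0.66, DFR from -0.29 to 0.85, LDOX from 0.56 to 1.85, UF3GT from 0.36 to 1.46, TT19/GSTF12 from 0.80 to 1.69 and MYB75 from -0.72 to -0.26. CHIL ranged from -0.14 to 0.52 there, AT5MAT from -0.88 to 0.33, BAN from -0.21 to 0.13 and SWEET11 from -0.17 to 0.30, and SWEET11 was -0.0052 with median centring. The cause was not tested.

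Over all probe sets, the 123 higher and 213 lower calls became 221 higher with a pseudocount of 1, 57 and 127 with a pseudocount of 64, 292 and 396 without the dimmest 40%, 236 and 321 with robust estimates, 300 and 422 with array weights and 371 and 513 at an adjusted p under 0.1. Median centring gave 87 and 320, a larger share of falls. Without the intensity trend limma called 0 and 0, with 3208 at an unadjusted p under 0.05. With the replicate number as a block there were 15 and 11, MYB75 was -0.48 (adjusted p = 0.199), and AT1G06000, the 1 lower pathway gene, was lost (0 lower), as it was without the trend. Of 6 arrays, 2 correlated best with the other group's array of their own number. With 1 array omitted, from 0 to 323 were higher and from 1 to 278 lower, and the pathway count was 0 to 1. The number of arrays and the spread between replicates limit the precision for the 6 genes. The median SD within groups was 0.52 on the log2 scale for the 9099 dim probe sets and 0.22 for the 13647 others. How far dimness adds to the spread of the 6 genes was not tested. The search for promoter motifs was not run.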
